A study of Mus musculus with 6 samples.

Results

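The 10 genes below encode proteins of the azurophil granules of neutrophils or proteins that act on them, and were followed by their symbols in the deposited count table: Mpo, Elane, Prtn3, Ctsg, Prss57, Ctsc, Srgn, Serpinb1a, Gusb and Ms4a3. All were found among the 45777 genes of the table, and all 10 passed the filter on low counts. RNA was sequenced from bone marrow neutrophils of wild-type C57BL/6 mice, purified on a Percoll density gradient and kept for 24 h with 10 µM prostaglandin E2 (PGE2) or with DMSO alone, the vehicle. There were 3 libraries in a group, given as biological replicates in the series design. The sources used here do not give the age, sex or number of the mice, or whether cells were pooled. The comparison asks how PGE2 changed the transcripts of these granule proteins.

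Azurophil or primary granules are the first granules a neutrophil precursor makes, at the promyelocyte stage, and most of their transcripts decline as the cell matures while the stored proteins stay. They hold myeloperoxidase, a family of serine proteases that cathepsin C activates by removing a short N-terminal propeptide, lysosomal hydrolases, and the proteoglycan serglycin on which the cationic proteins are packed. PGE2 is a lipid mediator that can raise cyclic AMP in myeloid cells through its receptors, and cyclic AMP signalling reaches DNA through factors that bind the CRE motif.

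Promoter windows of RefSeq (GRCm38.p6, 250 bases before to 50 after a gene start) were found for 8 of the 10 genes, in 9 windows, since Srgn has more than 1 start. The 5 stretches below are shown for the motif matches they hold. The Elane, Prtn3 and Mpo stretches share a PU.1 motif, and the Ctsg stretch holds MYB and RUNX motifs. The Srgn stretch comes from the one window with a short CRE. The PU.1 match of the Ctsg window and the MYB match of the Mpo window lie outside the stretches shown. Each runs 5′ to 3′ on the gene's strand, with motif matches in capitals: the PU.1 motif GAGGAA, or its longer form GAGGAAGT; the MYB motif, written as AACGG and also as AACTG, which reads CAGTT from the other strand; the RUNX motif TGTGGT, which reads ACCACA from the other strand; and TGACG, the short form of the CRE.
Elane, chr10:79886202-79886272, plus strand: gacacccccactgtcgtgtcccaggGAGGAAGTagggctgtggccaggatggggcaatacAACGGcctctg
Prtn3, chr10:79879547-79879621, plus strand: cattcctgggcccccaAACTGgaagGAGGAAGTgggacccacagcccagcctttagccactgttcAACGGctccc
Mpo, chr11:87793534-87793610, plus strand: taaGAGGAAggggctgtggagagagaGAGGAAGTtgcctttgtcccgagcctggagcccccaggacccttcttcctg
Ctsg, chr14:56102599-56102674, minus strand: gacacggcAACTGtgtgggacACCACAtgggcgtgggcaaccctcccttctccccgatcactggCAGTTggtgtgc
Srgn, chr10:62507813-62507842, minus strand: gttcaggaAACTGTGACGtgtgttcttggg

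Elane and Prtn3, which lie side by side on chromosome 10, share the order GAGGAAGT then AACGG, with 27 bases between the motifs in Elane and 32 in Prtn3. The Elane stretch runs from 110 to 40 bases upstream of the RefSeq start, the Prtn3 stretch from 120 to 46, the Mpo stretch from 250 to 174, the Ctsg stretch from 100 to 25, and the Srgn stretch from 85 to 56 bases upstream of the window's own start. The GENCODE annotation places the longest transcripts of Elane, Prtn3 and Mpo at starts further upstream (79886247, 79879614 and 87793581). The last bases of those 3 stretches are thus transcribed under that annotation. They include the AACGG of Elane and the end of the AACGG of Prtn3, while each GAGGAAGT stays upstream. Searched on both strands over the 250 bases upstream of 32851 mouse windows, GAGGAAGT was present in 2.44% of all windows and in 4 of the 9 windows of these genes, namely those of Elane, Prtn3, Mpo and Ctsc. The shorter GAGGAA, which every GAGGAAGT contains, was in 23.3% of all windows and in 5 of the 9, with Ctsg added. AACGG was in 14.5% of all windows and only in Elane and Prtn3 among the 9. AACTG was in 39.1% and in 5 of the 9, those of Ctsg, Mpo and Prtn3 and both of Srgn. TGTGGT was in 14% of all windows and in those of Ctsg and Srgn. The full CRE, TGACGTCA, was in 1.55% of all windows and in 0 of the 9, and its short form TGACG was in 17.8% and in 1, the Srgn window shown. The C/EBP motif TTGCNNCAA was in 1.74% of all windows and in that of Ms4a3, and its loose form TTNNGNAA was in 36.8% and in those of Ms4a3 and Srgn. These matches describe letters in a window.

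The libraries held 42091346 to 56238941 counts and 18242 to 19511 detected genes. Mature neutrophil markers were abundant, with S100a9 at 36031 CPM and S100a8 at 17481 CPM in vehicle (CPM, the count scaled to library size with TMM factors). Over the 12 mature markers the summed level was 75302 to 86631 CPM in vehicle and 76278 to 92525 CPM with PGE2, with 2 members higher and 5 lower. S100a9, S100a8 and Retnlg, none of them called, make up most of that sum. The 5 lower were Csf3r (5150.4 to 2696 CPM), Mmp9 (4555 to 2005), Mmp8 (4185 to 2127), Cxcr2 (2048 to 1609) and Ly6g (175 to 96). The 2 higher were Il1r2 (143 to 569 CPM) and Trem1 (187 to 315). Beside the counts in this and the other marker lists, 10.1% of all tested genes were higher and 14.3% lower. Other cells were present too, and fewer cells of a type and less RNA per cell cannot be told apart in such bulk samples. Hemoglobin genes took 0.413 to 1.86% of the counts in vehicle and 1.57 to 4.87% with PGE2. Markers of granulocyte-monocyte progenitors and promyelocytes, the cells that make azurophil granules, summed to 873 to 992 CPM in vehicle and to 705 to 825 CPM with PGE2. The fall of that sum lies in Clec12a (mean 214 to 94.8 CPM) and Cebpa (110.1 to 53.6 CPM). The means of Flt3, Myb, Sox4, Irf8, Plac8 and Rpl22l1 were higher with PGE2, and those of the rest were lower. Of those 14 markers, Rpl22l1 was higher and Cebpa, Hgf and Clec12a were lower, while Cd34 (11 to 10.7 CPM), Kit (18.4 to 14.9), Myb (141 to 149) and Gfi1 (15.2 to 12.8) were not called. The 12 cycling markers summed to 419 to 644 CPM in vehicle and 540.2 to 670.5 CPM with PGE2, and 1, Pcna, was higher. The 9 eosinophil markers summed to 154 to 311 CPM in vehicle and 72.8 to 119 CPM with PGE2, with 6 lower, and the 9 B cell markers stood at 624 to 917 CPM against 412 to 563 CPM, with 4 higher. Monocyte and macrophage markers summed to 1337 to 1788 CPM in vehicle and 1097 to 1498 CPM with PGE2, with 1 of 12 higher and 2 lower. The sums were 65.4 to 179 and 72.8 to 134 CPM for mast cells and basophils (0 of 6 tested called, Tpsb2 at 0), 48.5 to 108 and 51.7 to 133 CPM for T and NK cells (0 of 9 called), and 4418 to 20086 and 15636 to 51424 CPM for erythroid cells (1 of 9 called). These marker counts move with single libraries: without PGE2 replicate 2 or PGE2 replicate 3 the eosinophil list had 2 lower members and the mature list 3, and the mature list also had 3 without vehicle replicate 2. The B cell list had 2 higher members without vehicle replicate 1 or vehicle replicate 2. The cycling list had 0 higher without PGE2 replicate 1, PGE2 replicate 3 or vehicle replicate 2 and 2 without PGE2 replicate 2, and the call of Pcna was also lost without vehicle replicate 1 (adjusted p 0.0702). The monocyte list had 1 lower without PGE2 replicate 2, PGE2 replicate 3, vehicle replicate 1 or vehicle replicate 2, and 0 higher without the last of these. The erythroid list had 0 higher without PGE2 replicate 1, PGE2 replicate 2 or vehicle replicate 1 and 3 without PGE2 replicate 3. The progenitor list had 2 higher without PGE2 replicate 2, and 2 to 4 lower with 1 library left out. Its call of Clec12a was lost without PGE2 replicate 3 (edgeR adjusted p 0.0626) or vehicle replicate 1 (0.0559). With the replicate number as a block in the model, 16.6% of all tested genes were higher and 18.9% lower. The block called 9 erythroid, 8 B cell, 6 cycling, 3 T and NK cell, 2 monocyte and 2 mature markers higher. It called 6 eosinophil, 5 mature and 3 monocyte markers lower. Among the progenitor and promyelocyte markers 3 were higher with it (Flt3, Plac8 and Rpl22l1) and 3 lower. The part of any of these cells in the results below was not tested.

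With PGE2, azurophil granule genes moved in both directions. Srgn, which encodes serglycin, rose 3.47-fold and Gusb, which encodes the lysosomal enzyme beta-glucuronidase, rose 1.28-fold. Mpo, which encodes myeloperoxidase, fell to 0.505 of its vehicle level and Elane, which encodes neutrophil elastase, to 0.564. The other 6 genes, Prtn3, Ctsg, Prss57, Ctsc, Serpinb1a and Ms4a3, did not pass edgeR's quasi-likelihood test at an adjusted p of 0.05. The 2 of 10 called higher stand beside 10.1% of all 15947 tested genes and the 2 of 10 called lower beside 14.3%, so the number of calls is near the background. In 2 of them the lowest PGE2 library was above the highest vehicle library, as for 20.5% of tested genes, and in 4 the highest PGE2 library was below the lowest vehicle library, as for 21.8%. DESeq2's Wald test called 2 higher (12.4% of all tested genes) and 3 lower (16.7%), and limma on the authors' TPM 1 higher (7.66%) and 3 lower (17.9%); with counts scaled by library totals alone, 2 were higher (13.7%) and 2 lower (11%). The median log2 fold change of the 10 was -0.31, against 0.04 over all tested genes; it was -0.13 without vehicle replicate 1.

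The titles number the libraries 1 to 3 in both groups, and same-numbered libraries deviated together. Each of the 10 genes moved one way in all 3 same-numbered pairs, 7 downward and 3 upward, where 30.3% of all tested genes were lower and 32.5% higher in every pair. With the replicate number as a block, 5 of the 10 were lower (18.9% of all tested genes) and 3 higher (16.6%), so Ctsg, Prss57 and Serpinb1a joined the lower genes and Ctsc the higher. Replicate 1 was the highest library of its own group for Mpo, Elane, Ctsg, Prss57, Serpinb1a, Ctsc and Ms4a3, in vehicle and with PGE2 alike.

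**Figure D1:**
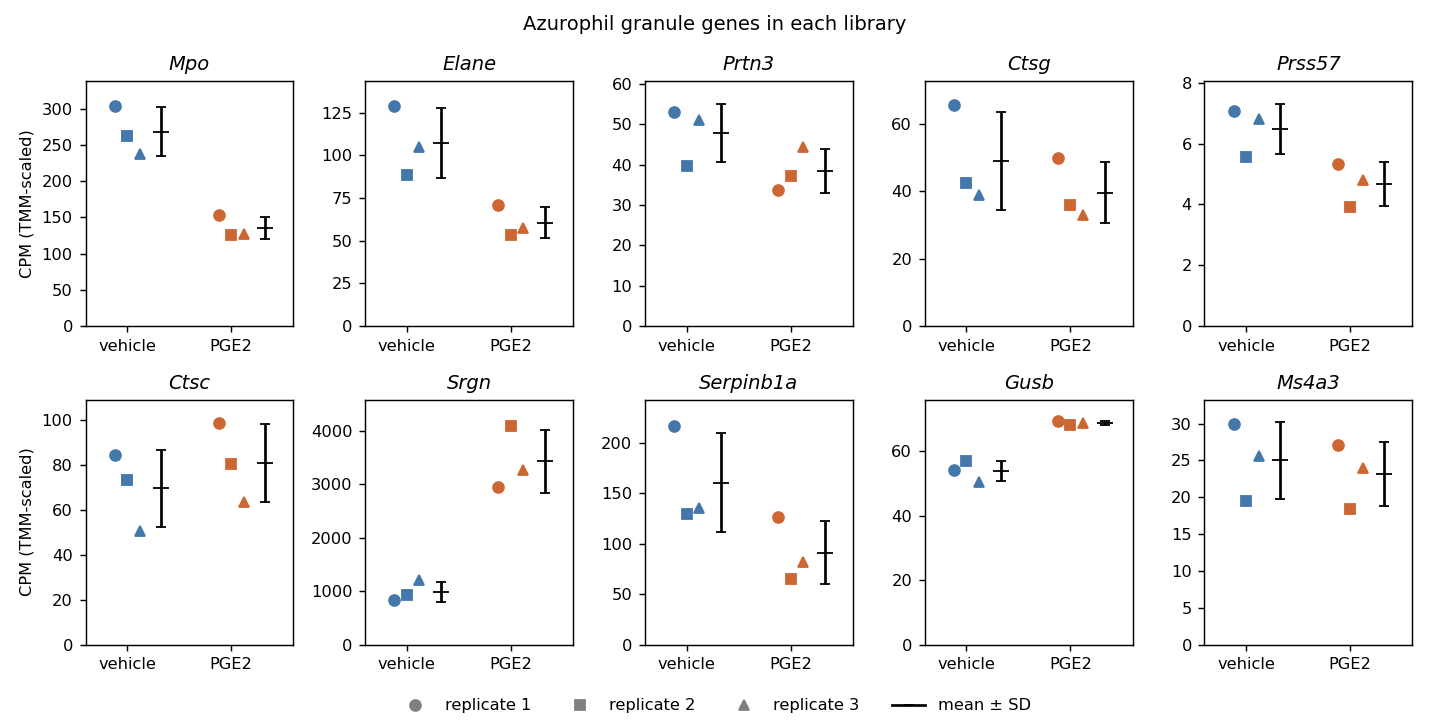
Level of each azurophil granule gene in the 6 libraries, in CPM on the y axis of each panel, with vehicle and PGE2 side by side; symbols mark the replicate number and bars the mean ± SD (n = 3 per group). The Srgn and Gusb PGE2 points lie above the vehicle points, those of Mpo, Elane, Prss57 and Serpinb1a lie below them, and the groups overlap for the other 4 genes.

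Mpo (gene ID 17523, chr11:87793784-87804412, plus strand) encodes the heme peroxidase that makes hypochlorous acid from hydrogen peroxide and chloride. In vehicle replicates 1, 2 and 3 it was at 304, 263 and 237 CPM, and with PGE2 at 153, 126 and 127 CPM. Every PGE2 library was far below the lowest vehicle library, and the order of replicates was similar in both groups. The means were 268 ± 33.8 CPM and 135 ± 15.1 CPM (SD, n = 3), a log2 fold change of -0.99 ± 0.12 (SE, 95% interval -1.26 to -0.71), with an edgeR adjusted p of 0.00109. Leaving out any 1 library kept it between -1.07 and -0.88. The gene overlaps Gm34064 on the other strand, which had too few counts to be tested. Of the related peroxidases, Lpo had 0 counts in every library and Epx, the eosinophil peroxidase, had 299 to 1835 counts.

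Elane, Prtn3, Ctsg and Prss57 encode the serine proteases of the granule. Elane (50701, chr10:79886312-79888216, plus strand) encodes neutrophil elastase, which cleaves elastin and bacterial outer membrane proteins. It was at 129, 88.3 and 105 CPM in vehicle and at 70.8, 53.5 and 57.2 CPM with PGE2. The highest PGE2 library lay below the lowest vehicle library, and replicate 1 was the highest and replicate 2 the lowest of both groups. Its means were 107 ± 20.4 and 60.5 ± 9.12 CPM, a log2 fold change of -0.83 ± 0.16 (95% interval -1.19 to -0.46, adjusted p 0.00718). Over the 3 same-numbered pairs the differences in log2 CPM were -0.86, -0.72 and -0.87, closer together than the libraries within a group.

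Prtn3 (19152, chr10:79879667-79883174, plus strand) encodes proteinase 3, the autoantigen of some vasculitides in people. Its levels were 52.9, 39.6 and 51.1 CPM in vehicle and 33.6, 37.1 and 44.4 CPM with PGE2. The groups overlapped, because PGE2 replicate 3 was above vehicle replicate 2. The log2 fold change was -0.32 ± 0.14 with an adjusted p of 0.151, and the interval of -0.65 to 0.01 holds both no difference and a fall like that of Ctsg or Prss57. Its 3 pairs differed by -0.65, -0.09 and -0.20, an uneven set in which the first pair was the widest.

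Ctsg (13035, chr14:56099885-56102574, minus strand) encodes cathepsin G, a protease of chymotrypsin-like specificity. It stood at 65.6, 42.5 and 39 CPM in vehicle and at 49.9, 35.9 and 32.9 CPM with PGE2. Replicate 1 was well above the others in both groups, and PGE2 replicate 1 was above vehicle replicates 2 and 3. Without the block the log2 fold change was -0.31 ± 0.22 (adjusted p 0.366, interval -0.83 to 0.21), and with it -0.30 ± 0.07 (adjusted p 0.0167). The value was -0.03 without vehicle replicate 1 and -0.50 without PGE2 replicate 1.

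Prss57 (73106, chr10:79781474-79794684, minus strand) encodes neutrophil serine protease 4, which cleaves after arginine. It had the fewest counts of the 10, at 7.07, 5.56 and 6.82 CPM in vehicle and 5.32, 3.9 and 4.79 CPM with PGE2, with at least 204 counts in every library. The PGE2 libraries lay just below the vehicle libraries, with a small gap. Its log2 fold change was -0.47 ± 0.18 (interval -0.89 to -0.06), with an adjusted p of 0.0945 without the block and, at -0.48 ± 0.14, of 0.03 with it. The gene shares sequence on the other strand with Fstl3 and Palm, and whether the authors' counting used the strand is not given, so reads of these genes may not be separated.

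Ctsc (13032, chr7:88278024-88315861, plus strand) encodes cathepsin C, the cysteine protease that activates the serine proteases above. It did not follow Elane or Mpo. Its levels were 84.4, 73.3 and 50.5 CPM in vehicle and 98.5, 80.3 and 63.6 CPM with PGE2. In both groups replicate 1 was the highest and replicate 3 the lowest, the groups overlapped, and each PGE2 library was above the vehicle library of its number. The log2 fold change was 0.22 ± 0.21 (adjusted p 0.503, interval -0.27 to 0.71) without the block and 0.23 ± 0.07 (adjusted p 0.0386) with it. Without the block it was 0.06 when PGE2 replicate 1 was left out and 0.03 without vehicle replicate 3, and 0.38 without PGE2 replicate 3 and 0.39 without vehicle replicate 1.

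Srgn (19073, chr10:62493833-62527445, minus strand) encodes serglycin, whose sulfated glycosaminoglycan chains hold elastase and other cationic proteins in the granule. In vehicle it was at 829.8, 928 and 1199 CPM, and with PGE2 at 2938, 4077 and 3258 CPM. The lowest PGE2 library was more than double the highest vehicle library. The means were 986 ± 191 and 3425 ± 587 CPM, a log2 fold change of 1.80 ± 0.17 (95% interval 1.40 to 2.20, adjusted p 0.000489). Of all counts in a library, Srgn took 0.0824, 0.0885 and 0.115% in vehicle and 0.307, 0.397 and 0.352% with PGE2. The other 9 genes together took 0.0673 to 0.0937% in vehicle and 0.0475 to 0.0662% with PGE2. Srgn was also the 1 member still called when the test asked for a log2 fold change beyond 1. Its RefSeq model has 7 transcripts from several starts, and the window with the short CRE is at one of the downstream starts; the untested LOC115487455 overlaps it on the other strand.

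Serpinb1a (66222, chr13:32842092-32853206, minus strand) encodes a cytosolic inhibitor of elastase, proteinase 3 and cathepsin G. It was at 217, 129.8 and 135 CPM in vehicle and at 126, 65.4 and 81.5 CPM with PGE2. The highest PGE2 library, replicate 1, was just under the lowest vehicle library, and replicate 1 was far above the other 2 in both groups. The log2 fold change was -0.82 ± 0.27 (interval -1.45 to -0.19), nearly the size of that of Elane but with a wider error, and its adjusted p was 0.0625. With the block it was -0.83 ± 0.08 (adjusted p 0.000148). It was -1.12 (adjusted p 0.0155) without PGE2 replicate 1 and -0.53 without vehicle replicate 1, the 2 libraries that stand apart. The related genes Serpinb1b and Serpinb1c had 2 and 5 counts over all libraries.

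Gusb (110006, chr5:129989011-130003049, minus strand) encodes beta-glucuronidase, a lysosomal enzyme often used as a reference gene in RT-PCR. It was at 54.2, 56.9 and 50.5 CPM in vehicle and at 69.4, 68 and 68.9 CPM with PGE2. The replicates were tight and the groups were apart. The means of 53.9 ± 3.2 and 68.8 ± 0.705 CPM gave a log2 fold change of 0.35 ± 0.08 (interval 0.17 to 0.54, adjusted p 0.0149). The call is not firm: without vehicle replicate 3 the value was 0.31 with an adjusted p of 0.0577, and on the authors' TPM with limma it was 0.24 with an adjusted p of 0.181.

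Ms4a3 (170813, chr19:11629499-11640851, minus strand) encodes a four-span membrane protein of granulocyte-monocyte progenitors and their early granulocyte progeny. It was at 29.9, 19.5 and 25.6 CPM in vehicle and at 27.1, 18.4 and 24 CPM with PGE2. The groups overlapped almost fully, with the same order of replicates in each. Its log2 fold change was -0.11 ± 0.19 (adjusted p 0.723), and the interval of -0.55 to 0.33 bounds a fall or rise. The fall of Mpo lies outside that interval, but the difference between the genes was not tested.

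**Figure D2:**
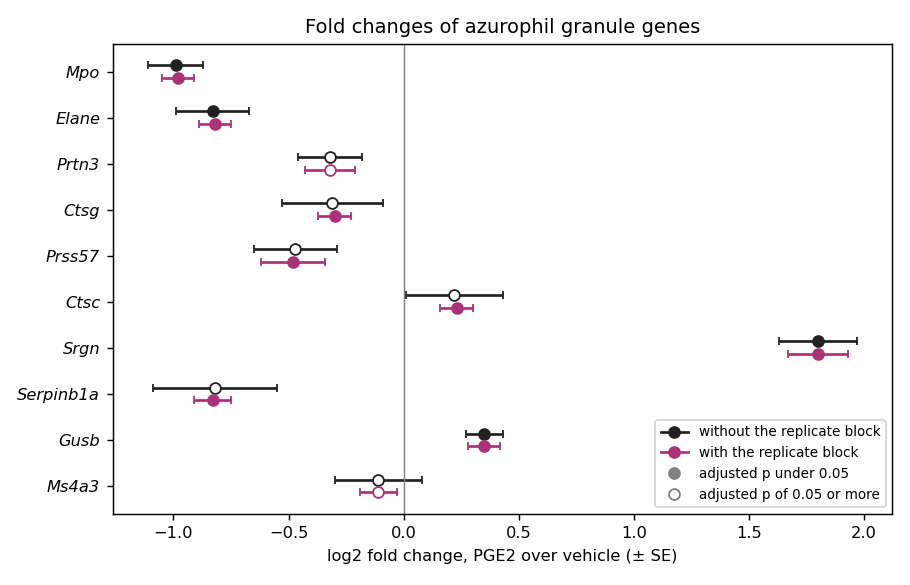
Log2 fold change of each azurophil granule gene, PGE2 over vehicle, on the x axis with its SE, without and with the replicate number as a block (3 libraries per group); filled symbols passed an adjusted p of 0.05. Srgn at 1.80 lies far to the right, Mpo at -0.99 is farthest to the left, and the block shortens the error bars of Ctsg, Ctsc and Serpinb1a more than it moves their values.

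Levels can be set side by side between genes on the authors' TPM, which is per transcript length. In vehicle the order by mean TPM was Srgn, Elane, Mpo, Serpinb1a, Ctsg, Prtn3, Ms4a3, Gusb, Ctsc and Prss57. Srgn was at 977, 703 and 1019 TPM in vehicle and at 3173, 3439 and 3076 TPM with PGE2, which took it from rank 106 to rank 23 among the tested genes. Elane went from 264, 159 and 195 TPM to 131, 84.8 and 107 TPM, and from rank 606 to rank 1050. Mpo went from 225, 171 and 159.9 TPM to 102, 72.0 and 85.7 TPM, and from rank 682 to rank 1329. Srgn was thus above all other members in every library, and its distance to them widened with PGE2. Elane, Mpo and Serpinb1a overlapped in vehicle and are not ordered beyond their spread, and Ctsg (67.3 to 124 TPM) overlapped with Serpinb1a above it and with Prtn3 below it. Prtn3, at 67.6 TPM or more, was above Ms4a3, at 55.8 TPM or less. Ms4a3 and Gusb overlapped, Gusb at 34.2 TPM or more was above Ctsc at 23.7 TPM or less, and Prss57 (3.43 to 4.94 TPM) was lowest. With PGE2 the one change in that order was that Gusb stood above Ms4a3, and the 2 genes overlapped there too.

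**Figure D3:**
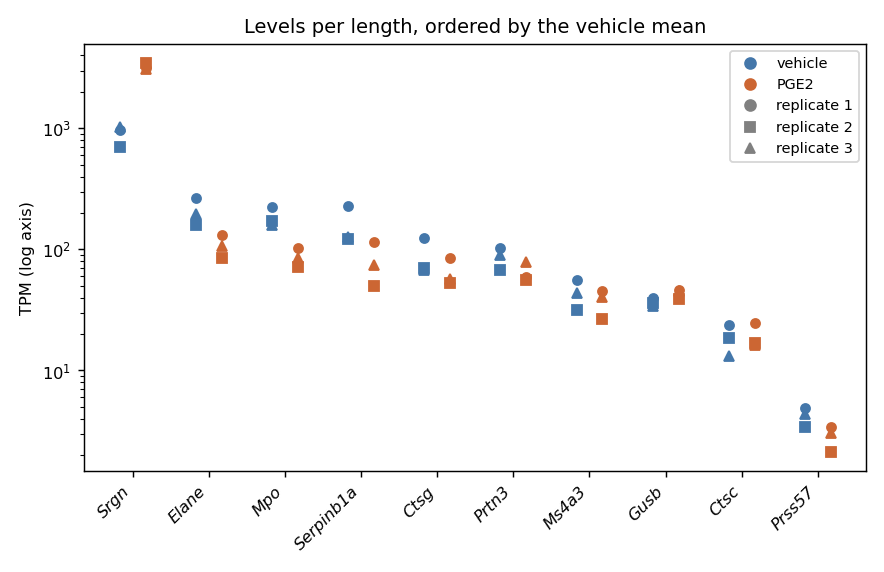
Deposited TPM of the 10 genes on a logarithmic axis, ordered by the vehicle mean, with 1 point per library (3 vehicle, 3 PGE2). Srgn stands above all others at 703 to 1019 TPM in vehicle and 3076 to 3439 TPM with PGE2, and Prss57 is lowest in both groups.

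Ratios within a library show how the mix of these transcripts differed. Relative to Elane in the same library, the log2 ratio of TPM for Srgn was 1.89, 2.14 and 2.38 in vehicle and 4.60, 5.34 and 4.85 with PGE2. For Ctsg it was -1.09, -1.17 and -1.54 in vehicle and -0.62, -0.69 and -0.91 with PGE2, groups that did not overlap. Prtn3, at -1.37, -1.23 and -1.11 against -1.16, -0.61 and -0.44, moved the same way in its mean, and its groups overlapped. Serpinb1a, the inhibitor, kept nearly the same mean ratio to Elane, -0.41 and -0.48, and the mean for Mpo was -0.14 in vehicle and -0.30 with PGE2. The activator Ctsc went from a mean ratio of -3.50 to -2.48. These ratios are descriptions and carry no test.

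Likeness of pattern was measured as the root mean square difference of log2 CPM over the 6 libraries, after each gene was centred on its own mean. Among the 45 pairs of members, Mpo and Elane were closest at 0.153, followed by Elane with Serpinb1a at 0.193 and Elane with Prss57 at 0.197. Mpo and Srgn were farthest apart at 1.43. Among 11378 other genes with a mean count of at least 100, the 5 most like Mpo were Cbl (0.0143), Ttc13 (0.0316), Plxnc1 (0.0344), Thra (0.0445) and Tmem131 (0.0458). Those 5 had log2 fold changes of -1.03 to -0.93. The 5 most like Elane were Arhgap19 (0.0728), Atrx (0.0736), Depdc1b (0.0752), Nin (0.0777) and Ica1 (0.0813), with log2 fold changes of -0.80 to -0.75. Each of these 10 genes was closer to Mpo or to Elane over the 6 libraries than any azurophil granule gene was. They were picked as the closest of 11378 genes and set against few members. That comparison therefore cannot show whether the members move together. The call of Ica1 (adjusted p 0.0233) was lost when PGE2 replicate 2, PGE2 replicate 3, vehicle replicate 1 or vehicle replicate 3 was left out.

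Prss57, Prtn3 and Elane lie in one stretch of chromosome 10, where the gap from Prtn3 to Elane is 3138 bases. Within 50 kb of any of them, 13 other genes were tested, of which 4 were lower, 0 higher and 9 not called (5 lower and 1 higher with the block). Over all tested genes 14.3% were lower and 10.1% higher (18.9% and 16.6% with the block). R3hdm4 fell from 679.6 to 352 CPM (log2 fold change -0.95 ± 0.13), Kiss1r, a peptide receptor gene, from 15.8 to 7.40 CPM (-1.10 ± 0.12), and Arid3a, which encodes a DNA-binding protein, from 348 to 235 CPM (-0.57 ± 0.08). Palm, which overlaps Prss57, fell from 99.8 ± 51.3 to 35.7 ± 9.38 CPM (-1.48 ± 0.34, adjusted p 0.0153). Without vehicle replicate 3 Palm was at -0.98, and without PGE2 replicate 2 its adjusted p was 0.0559. Fstl3, on the other side of Prss57, was at -0.93 ± 0.38 with an adjusted p of 0.112, and was called lower with the block. Ptbp1, an RNA-binding protein gene 15232 bases before Prtn3, was at 0.15 ± 0.08 (adjusted p 0.249), and Med16, 6490 bases from Elane, at 0.04 ± 0.12 (adjusted p 0.865). Polrmt was at 0.43 ± 0.15 (adjusted p 0.067) and was the gene called higher with the block. Rnf126 (0.04 ± 0.13), Plppr3 (0.09 ± 0.17), Gm40715 (0.0 ± 0.43), E130317F20Rik (0.39 ± 0.64) and Misp (0.45 ± 1.36) were not called with or without it. Lower and uncalled genes were thus interleaved along the stretch, over a range of log2 fold changes from -1.48 to 0.45.

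Other contents of azurophil granules came from a list of enzymes and a list of membrane and antimicrobial proteins. Of 20 lysosomal hydrolases and their activators, 12 were lower and 1 higher, with a median log2 fold change of -0.45. With 1 library left out 8 to 10 were lower, and with scaling by library totals 9 were. The counts of this list and of those that follow stand beside 14.3% of all tested genes lower and 10.1% higher. With the block those shares were 18.9% and 16.6%. Man2b1, lysosomal alpha-mannosidase, fell from 446 to 197 CPM (-1.18 ± 0.10), and Hexa, the alpha subunit of beta-hexosaminidase, from 346 to 195 CPM (-0.83 ± 0.10). Gla, alpha-galactosidase, went the other way, from 30.2 to 88.5 CPM (1.55 ± 0.13), and was with Gusb the hydrolase that rose. Of 7 tested membrane and antimicrobial proteins, 2 were lower, both lysozymes: Lyz2 went from 13426 to 6449 CPM (-1.06 ± 0.12) and Lyz1 from 117 to 50.3 CPM (-1.22 ± 0.14). Their reads may be shared, since the 2 lysozyme genes are near copies. The granule membrane marker Cd63 was at 183 and 154 CPM (-0.25 ± 0.10, adjusted p 0.113). The median of the 7 was -0.17, and Stom, which was not called, was called higher with the block and 1 of the 7 was higher without PGE2 replicate 3.

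Among inhibitors of serine proteases other than Serpinb1a, 2 of 10 tested were higher and 0 lower (median 0.11, or -0.09 with the block, which called 4 higher). Serpinb2, which encodes plasminogen activator inhibitor type 2, was at 0.545, 1.1 and 0.445 CPM in vehicle and at 8.6, 14.3 and 7.47 CPM with PGE2 (3.88 ± 0.40). Serpinb8 went from 4.59 to 7.21 CPM (0.65 ± 0.18, adjusted p 0.0301), a call that was lost without each library in turn except PGE2 replicate 3, so that the count was then 1. The secreted elastase inhibitor Slpi was at 423 and 391 CPM (-0.12 ± 0.13, adjusted p 0.559). The count lower became 1 without PGE2 replicate 1.

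Of 18 genes that fold, sort or store granule proteins, 8 were lower and 1 higher, with a median of -0.05. Nbeal2, needed for normal platelet and neutrophil granules, fell from 1034 to 432 CPM (-1.26 ± 0.08). Lyst, mutated in Chediak-Higashi syndrome with its giant granules, fell from 994 to 425 CPM (-1.23 ± 0.12), and Ap3b1, the AP-3 subunit lost in a form of Hermansky-Pudlak syndrome with neutropenia, from 95.2 to 59.9 CPM (-0.67 ± 0.09). Hspa5, the endoplasmic reticulum chaperone BiP, rose from 219.7 to 319 CPM (0.54 ± 0.09). Leaving out PGE2 replicate 2, PGE2 replicate 3 or vehicle replicate 3 left 5 lower genes in each case, and scaling by library totals also left 5. The 12 genes of granule release had 7 lower and 2 higher members and a median of -0.45. Unc13d, which primes granules for fusion, fell from 132 to 64.7 CPM (-1.03 ± 0.08) and the Src-family kinase gene Fgr from 629 to 315 CPM (-1.0 ± 0.11). The syntaxin gene Stx11 rose from 399 to 793 CPM (0.99 ± 0.13) and the vesicle fusion gene Vamp2 from 100.1 to 135 CPM (0.44 ± 0.09), and the call of Vamp2 was lost on the authors' TPM (adjusted p 0.0579 with limma). The fusion machinery thus held large changes in both directions.

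Of 13 regulators of azurophil gene transcription, most of them transcription factors, 5 were lower and 2 higher (median -0.31). Cebpa, the C/EBP factor of granulocyte commitment, was at 106, 116 and 108 CPM in vehicle and 50.8, 53.0 and 56.9 CPM with PGE2 (-1.04 ± 0.08). Cebpb, the C/EBP factor of emergency granulopoiesis, was at 81.8, 109 and 119 CPM in vehicle and 248, 371 and 341 CPM with PGE2 (1.63 ± 0.18). The 2 factors thus moved in opposite directions, each with groups that did not overlap. Lmo2 fell from 115 to 58.8 CPM (-0.97 ± 0.12), Cebpe, Cebpd and the PU.1 gene Spi1 were lower by -0.77, -0.39 and -0.43, and Cux1 rose from 88 to 134 CPM (0.61 ± 0.13). Myb, whose motif is in the Elane and Prtn3 stretches as AACGG and in the Prtn3, Ctsg and Srgn stretches as AACTG, was at 141 and 149 CPM (0.08 ± 0.11, adjusted p 0.661). Without vehicle replicate 2 the counts were 3 lower and 1 higher, since Cux1 was then at an adjusted p of 0.0535.

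Specific and gelatinase granules are made later in maturation. Of 11 tested genes of specific granules, 6 were lower and 0 higher with a median of -0.85, among them Cd177 from 1275 to 441 CPM (-1.53 ± 0.24), Cybb, the oxidase subunit, from 974 to 401 CPM (-1.28 ± 0.25), and Pglyrp1 from 856 to 421 CPM (-1.02 ± 0.15). Without PGE2 replicate 2 or PGE2 replicate 3 that count was 3, and with the block it was 10, where 18.9% of all tested genes were lower. Of 8 tested genes of gelatinase granules, 4 were lower and 0 higher with a median of -0.72, among them Mmp9 from 4555 to 2005 CPM (-1.18 ± 0.12), Mmp25 from 279 to 105 CPM (-1.41 ± 0.19), and the integrin gene Itgam from 2250.1 to 1446 CPM (-0.64 ± 0.11). Mpo and Elane lie within the range of these falls. No test compared the granule classes with each other.

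**Figure D4:**
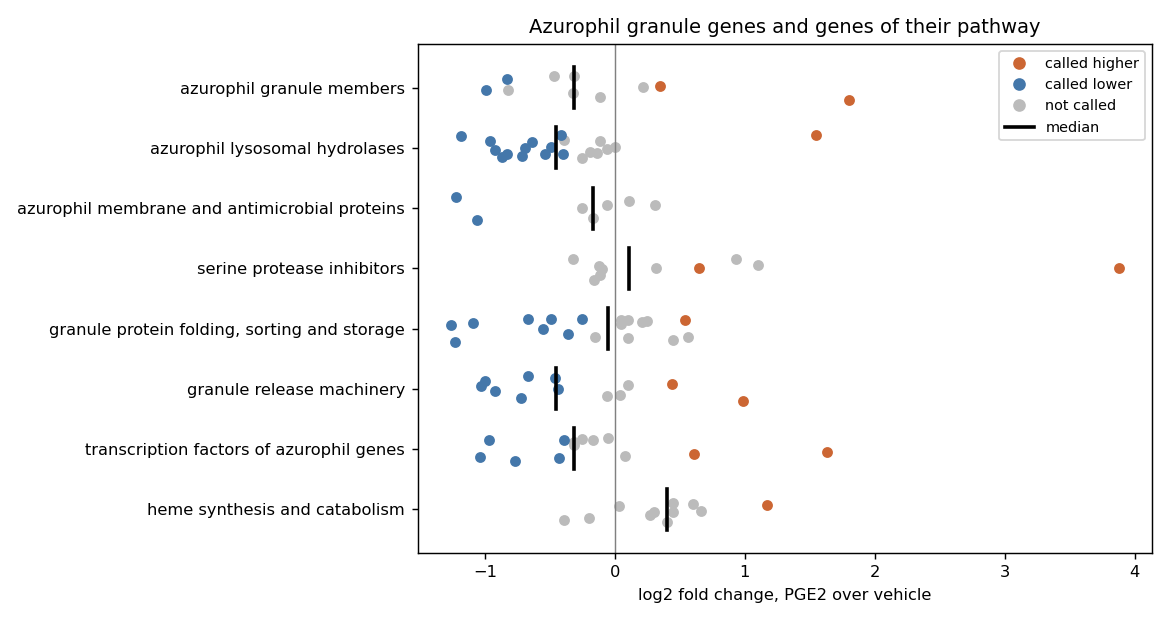
Log2 fold change, PGE2 over vehicle, of every tested gene of the azurophil members and of related gene lists, 1 point per gene, with a bar at each list's median and colour for genes called higher or lower (edgeR, adjusted p of 0.05). The azurophil members spread from -0.99 to 1.80 around a median of -0.31, and the hydrolases lie mostly below 0 with Gla alone above 1.

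**Figure D5:**
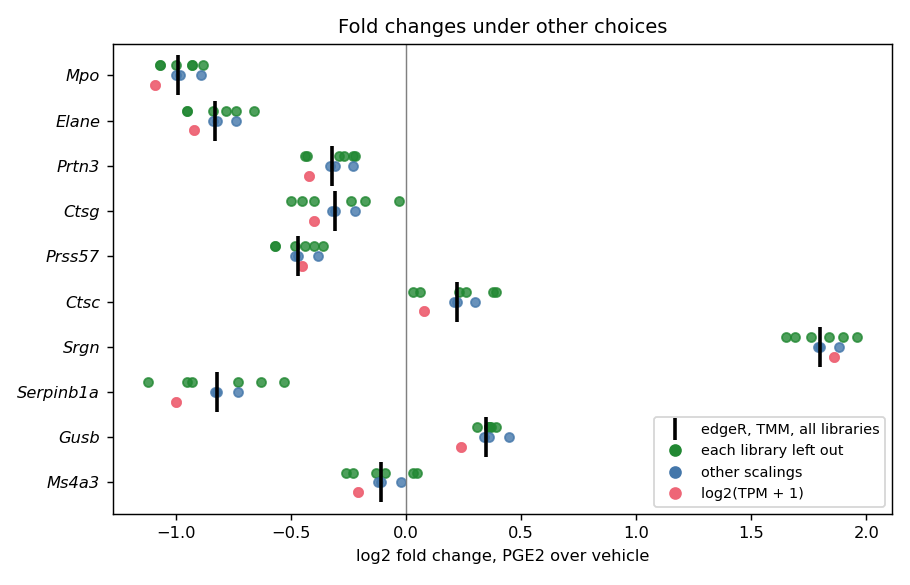
Log2 fold change of each azurophil granule gene with the test as first run (black bar), with 1 library left out (green), with 3 other scalings of the counts (blue) and on log2(TPM + 1) (red). Mpo stays between -1.09 and -0.88, Elane between -0.95 and -0.66 and Srgn between 1.65 and 1.96, while Ms4a3 crosses 0.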

How the data were processed

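The submitters' processing notes name build mm10 and the tools STAR, Bowtie2, RSEM, StringTie 2.1.3b and DESeq2, without saying which made which value. The estimated counts in the deposited series table are whole numbers. Although that table is named as normalized, its columns add up to different totals, and they were treated as raw. The authors' TPM values stand in the same table. Per the file headers, the tables of single libraries hold coverage and TPM; the coverage was not used. A further 18 columns, of other libraries, were left out. The labels' protocols name both a standard and a stranded TruSeq mRNA kit, and say nothing of strand in counting.

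Genes with at least 10 counts in at least 3 libraries (15947) were tested with edgeR 4.0.16's quasi-likelihood test on all 6 libraries, with TMM scaling, two-sided, and Benjamini-Hochberg adjustment over all tested genes at 0.05, in R 4.3.3. The biological coefficient of variation was 22.4%. The scripts were tested on simulated data. Members and lists were chosen with earlier results of these data known. Lists are described by counts and medians. The text names every member, up to 3 genes per list with the smallest adjusted p and up to 2 called the other way, the tested genes within 50 kb of Elane, Prtn3 and Prss57, and the 5 genes most like Mpo and Elane. Of other list genes named, Cd63, Slpi, Cebpd, Cebpe, Spi1, Myb and Stom were chosen after their values were seen, as were the marker genes named singly. A result under that rule is not reported here.

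Deviations from the group means correlated at 0.42, 0.31 and 0.33 for same-numbered libraries and at -0.29 to -0.01 for others. Deviations cancel within a group, so positive values for same-numbered libraries make the others negative on average. The libraries were treated as paired by number in the block. The numbers come from the titles, and the labels do not say what one stands for. Replicates of a group correlated at 0.986 to 0.993 and differed by a chi-square of 32.5 to 118 per gene. Coordinates matched RefSeq GRCm38.p6 for 96.4% of 45679 genes and for all 10 members.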

Additional observations from a re-analysis of the deposited data

How the results depend on the processing

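The alternatives were leaving out each library, the replicate block, scaling by library totals or by DESeq2 1.42.0 size factors, that tool's own Wald test, no low-count filter or one of 50 counts, limma 3.58.1 on log2(TPM + 1) (TPM of 1 or more in 3 libraries), and a minimum log2 fold change of 1. Scaling without hemoglobin genes and limma with the block were chosen after seeing the data. Of 160 values over the 10 genes, 158 kept their sign, 141 also their side of the threshold, 11 were newly called and 6 lost their call. Ms4a3, not called, was the one that changed sign: it ran from -0.26 to 0.05 with 1 library left out, and was above 0 without PGE2 replicate 2 (0.03) or vehicle replicate 1 (0.05). The count of members higher was 1 to 2 and lower 2 to 3 with 1 library left out. With the replicate block 5 were lower, and no call among the members changed beyond those given beside Ctsg, Prss57, Ctsc and Serpinb1a. With limma's replicate block on TPM 6 were lower and 1 higher. That fit called 3351 lower and 1801 higher of all 12621 genes it tested. Without the block on TPM 1 was higher. With the minimum fold 1 was higher and 0 lower, and 185 genes were called over the table, where edgeR without it called 3896, at 2632 to 3803 with 1 library left out and 5657 with the block. Across all genes, calls higher made up 41.5% with TMM scaling, 55.5% with library totals and 30% on TPM, and the median log2 fold change was 0.04, 0.13 and -0.06. With 3 libraries per group, SEs of 0.08 to 0.27 for the members limit what could be called.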

Other observations

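Myeloperoxidase carries heme. Alas1, the step that starts heme synthesis in non-erythroid cells, was at 115 CPM in vehicle and 100.2 CPM with PGE2 (log2 fold change -0.20 ± 0.18, edgeR adjusted p 0.458), and with the replicate block it was called lower (-0.21 ± 0.07, adjusted p 0.0422). The heme oxygenase gene Hmox1 was at 140.1 and 107 CPM (-0.39 ± 0.14, adjusted p 0.09). Neither passed the test without the block, and both were chosen after their values were seen.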
